A study of Homo sapiens with 4 samples.

Results

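SMAD1 occupancy was examined around 5 genes that make up the entry to the BMP pathway, the receptor genes BMPR1A, BMPR1B, BMPR2 and ACVR1 and the ligand gene BMP4. The members were all SMAD1 ChIP-seq peaks within 100 kb of these gene bodies in build hg19. They numbered 2 of the 5203 peaks listed for untreated cells and 14 of the 7682 peaks listed after BMP4 treatment. The rule names the genes and their positions and uses no peak value, but the genes were chosen with earlier results of these data known.

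Cells of H1, a long-established line of human embryonic stem cells (hESCs), were kept in mTeSR1 medium on Matrigel and were either left untreated or given 50 ng/ml BMP4 for 60 min. Chromatin was fixed with 1% formaldehyde and precipitated with an antibody to SMAD1. The labels give 4 samples, 1 ChIP and 1 input for each condition, and 1 peak list was used for each ChIP (the untreated list and the treated list). Replicates were merged by the authors before peak calling, which leaves every value of the lists without a replicate error and every difference between the lists without a test. Both conditions used a single cell line. The lists hold no expression values, so the cell type was not checked against marker genes. They hold no read counts either, and the depth of each library is unknown.

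BMP ligands such as BMP4 bind a complex of type I and type II serine/threonine kinase receptors at the cell surface. The type II receptor phosphorylates the type I receptor, which in turn phosphorylates SMAD1, SMAD5 and SMAD9. These bind SMAD4, enter the nucleus and occupy regulatory DNA. BMP4 is known to move hESCs out of pluripotency and into mesodermal and extraembryonic fates.

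The treated list held peaks at 4 of the 5 genes, with 6 at BMP4, 5 at BMPR1A, 2 at ACVR1, 1 at BMPR2 and 0 at BMPR1B. The untreated list held 1 peak at BMP4 and 1 at BMPR1B, and the other 3 genes had 0. The windows together spanned 1.91 Mb. This came to 7.34 treated peaks per Mb, where the whole treated list had 2.49 per Mb, and to 1.05 untreated peaks per Mb, where the whole untreated list had 1.68. Of the 16 peaks, 87.5% were in the treated list (95% Clopper-Pearson interval 61.7 to 98.4), and of all 12885 peaks in both lists this share was 59.6%. The higher treated density and share rest mostly on BMP4 and BMPR1A. Treated counts at ACVR1, BMPR2 and BMPR1B were not unusual for windows as long as theirs. These densities and shares describe the deposited lists, which are many times longer than the methods of the study state, with the conditions in the opposite order. The interval covers counting error only, and peaks at the same gene are not independent.

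**Figure D1:**
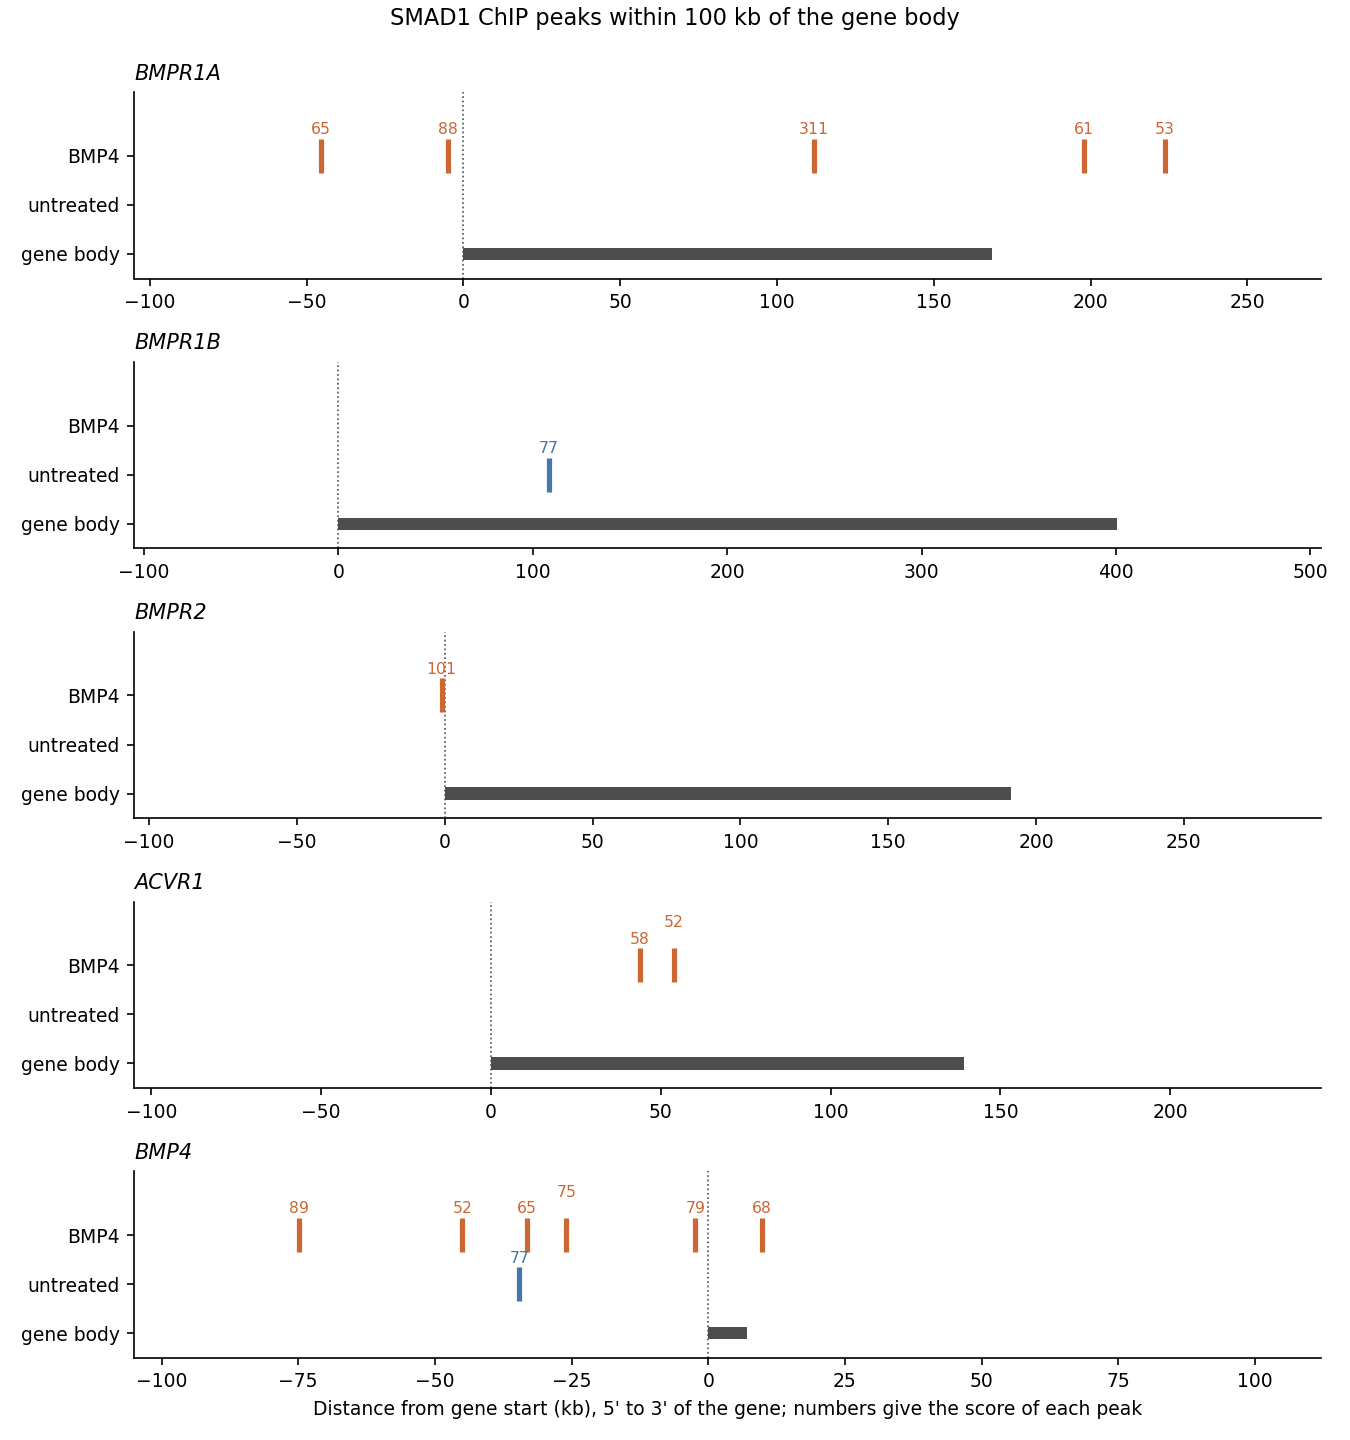
Position of each SMAD1 peak (vertical ticks, with the peak score above) by distance in kb from the gene start, in the direction of transcription, for the untreated list and the treated list (BMP4). The gene body is the dark bar. Peaks of the treated list lie at 4 genes and those of the untreated list at 2, and at the BMP4 gene 5 of the 6 treated peaks lie upstream of the start.

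No member shared even 1 bp with a peak of the opposite list. In the treated list 0 of 14 had such a partner, which allows a share of up to 21.4% by the limit of 3 counts, and in the whole treated list 12.7% of peaks had a partner. In the untreated list 0 of 2 had a partner, against 18.3% of the whole list. The paper states that its called peaks include non-specific enrichment at tRNA regions. Such regions were not removed here, so shares and ranks over a whole list may include them. Partners were rarer among weak peaks, which made up most of the members as they did of the lists. Of treated peaks with a score under 100, 5.45% had a partner, and of such untreated peaks 7.04%. All of these treated shares lie under the limit of 21.4%, so a lower share of partners at these genes was not detectable with 14 peaks.

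The score is the value that the authors' peak caller gave each peak, read as 10 times −log10 of its p-value, with a lowest value of 50 in both lists. It rises with depth, and a given score need not mean equal enrichment in the lists. Its relation to peak width was not tested. Scores of the 14 treated members ran from 52.03 to 311.36 with a median of 66.5, and the median of the whole treated list was 63.3. In 12 of the 14 the score was under 100, as it was in 79.8% of the treated list, and 5 lay below the list's median. Widths ran from 504 to 1215 bp with a median of 670 bp, and the list's median was 674 bp. The 2 untreated members scored 77.02 and 76.77, above the untreated median of 61.7 and under 100, as were 78.7% of that list.

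**Figure D2:**
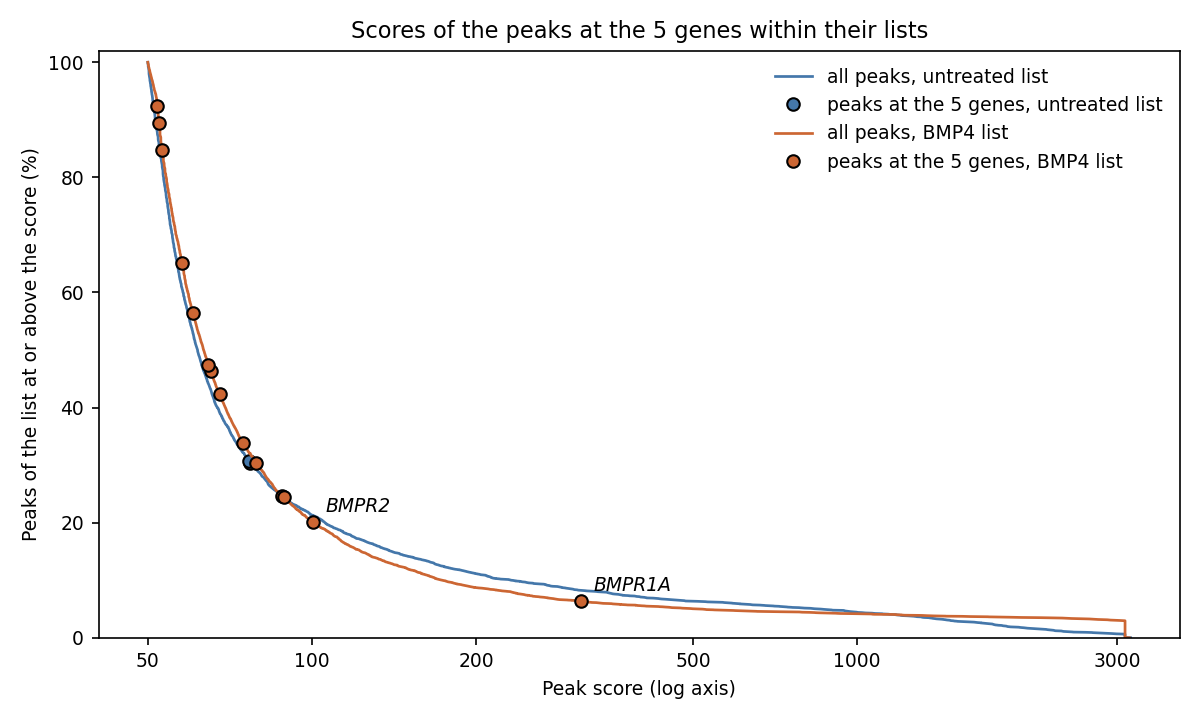
Share of the peaks in each list at or above a given score (lines, log axis) with the peaks at the 5 genes marked as points. Most points lie on the steep part of the curve under a score of 100, and the BMPR1A peak at 311.36 is set apart at 6.37% of the treated list.

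BMPR1A encodes a type I receptor that binds BMP2 and BMP4. Its gene body lies on the plus strand of chromosome 10 from 88516396 to 88684945. The strongest peak of any of the 5 genes was inside it, from 88627663 to 88628877. It was 1215 bp wide, scored 311.36 and ranked 489 of 7682 in the treated list. Its midpoint was 111.87 kb past the gene start, or 66.4% of the way along the gene body, and the nearest untreated peak was 199 kb away. Of treated peaks scoring 300 to 500, 43.0% had a partner in the untreated list, so that lack of a partner was common in this range too. That share may include the tRNA regions named above. Among the 6708 treated peaks without a partner the peak inside BMPR1A ranked 87, and 92 of these scored at least 300.

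The other 4 treated peaks at BMPR1A lay outside the gene body and were weaker. The peak nearest to the start, from 88511130 to 88511925, ended 4.47 kb upstream of it and scored 88.17. Another upstream peak, from 88470688 to 88471357, was 45.0 kb away and scored 65.27. Downstream of the gene end were a peak at 29.1 kb (88713998 to 88714501, score 60.51) and a peak at 54.8 kb (88739736 to 88740316, score 53.14). The 5 peaks were thus spread over 270 kb, with gaps of 25.2 to 116 kb between them.

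The untreated list had no peak in the BMPR1A window, and its nearest peak was 143 kb past the gene end, from 88827736 to 88828394, with a score of 57.61. Windows of the same length (369 kb) laid end to end along all chromosomes put these counts in context. At least 1 untreated peak was found in 36.0% of them, at least 1 treated peak in 52.1%, and at least 5 treated peaks in 1.59%. Such windows include assembly gaps, where no peak can be called, which lowers the shares. The tRNA regions left in the lists may act the other way, and the net effect was not tested. By gene order in RefSeq, OPN4 and LDB3 precede BMPR1A and MMRN2 and SNCG follow it. Whether an outer peak lies inside a neighbouring gene was not determined, because no annotation of build hg19 was used here.

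BMPR1B encodes the other type I receptor closely related to BMPR1A. It lies on the plus strand of chromosome 4 from 95679128 to 96079601 and is the longest of the 5 genes. The treated list had no peak in its window, and the nearest treated peak was 771 kb away. The untreated list had 1 peak, from 95787228 to 95787908, which was 681 bp wide, scored 77.02 and ranked 1583 of 5203. Its midpoint lay 108.44 kb into the gene, at 27.1% of the gene body, and the nearest treated peak was 879 kb away. BMPR1B was therefore the gene at which the order of the lists was opposite to that at the other 4.

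A window of the length used for BMPR1B (600 kb) held at least 1 untreated peak in 49.9% of cases and at least 1 treated peak in 67.8%. Both values at this gene, 1 untreated and 0 treated, were common by that measure. A second untreated peak, from 96181188 to 96181948 with a score of 68.64, lay 101587 bp past the gene end and so just outside the limit. It was the peak nearest to the limit on its outer side in either list. The member nearest to the limit on the inner side was a treated peak 74.6 kb upstream of BMP4.

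BMPR2 encodes the type II receptor most specific to BMP ligands, and lies on the plus strand of chromosome 2 from 203241050 to 203432474. It had 1 treated peak, from 203239607 to 203240485, which was 879 bp wide, scored 100.58 and ranked 1541 of 7682. The peak ended 565 bp upstream of the gene start, the shortest distance from a peak to a start among the 5 genes. The nearest untreated peak was 310 kb from it. The untreated list had no peak in the window, and its nearest peak lay 243 kb past the gene end with a score of 52.59. Windows of that length (391 kb) held at least 1 treated peak in 54.1% of cases and at least 1 untreated peak in 37.9%. The count at BMPR2 was thus an ordinary one, and what set the peak apart among the members was its place beside the start and its score, the highest after that of BMPR1A.

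Because the peaks of BMPR2 and BMP4 that lay nearest to a start did so within 3 kb, the sequence just upstream of these starts is shown. The limit of 3 kb was not planned, and BMPR1A, with a peak 4.47 kb upstream, falls outside it. The letters are the 250 bases before the RefSeq start in build GRCh38.p14. RefSeq lists 1 start for BMPR2 (chr2:202376077-202376326, plus strand) and 3 for BMP4, of which the outermost is given (chr14:53955051-53955300, minus strand). The starts in that build were not matched to the hg19 gene bodies, so a start shown here need not be the one the distances above refer to. By those distances the peaks lie further upstream, outside this sequence. Capitals mark the SMAD box GTCT, read on both strands (AGAC on the other), and the GC-rich site GGCGCC known for SMAD1.
BMPR2: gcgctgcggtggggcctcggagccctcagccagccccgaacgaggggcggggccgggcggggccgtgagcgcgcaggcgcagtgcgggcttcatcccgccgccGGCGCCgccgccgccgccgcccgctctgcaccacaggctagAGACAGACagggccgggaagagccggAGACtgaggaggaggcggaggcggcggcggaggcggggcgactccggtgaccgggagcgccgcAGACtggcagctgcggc
BMP4: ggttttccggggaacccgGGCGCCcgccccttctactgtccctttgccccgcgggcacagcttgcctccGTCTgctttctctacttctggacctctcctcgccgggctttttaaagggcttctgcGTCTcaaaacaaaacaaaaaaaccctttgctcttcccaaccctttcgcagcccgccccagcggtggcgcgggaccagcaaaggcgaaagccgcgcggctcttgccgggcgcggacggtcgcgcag

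The BMPR2 sequence held 4 SMAD boxes, each in the AGAC orientation, and 1 match to the GC-rich site, and 79.2% of its bases were G or C. The BMP4 sequence held 2 SMAD boxes in the GTCT orientation and 1 match to the GC-rich site, with 63.6% G or C. At the other BMP4 starts in RefSeq, the sequence from 53954489 to 53954738 held 0 SMAD boxes and that from 53953396 to 53953645 held 2, and each held 0 matches to the GC-rich site. At BMPR1A, which is not shown, the 250 bases before the RefSeq start held 0 SMAD boxes and 0 matches to the GC-rich site. BMPR1B, which had no treated peak, has 3 RefSeq starts. From the outermost inward these held 1, 3 and 5 SMAD boxes, and each held 0 matches to the GC-rich site. The 3 starts of ACVR1 held 1, 2 and 1 SMAD boxes in that order, and only the outermost held the GC-rich site, with 1 match. Over all 35116 RefSeq starts the same 250 bases held at least 1 SMAD box in 77.5%, at least 4 in 7.75% and the GC-rich site in 16.4%. The palindrome GTCTAGAC, in which a SMAD box stands on each strand, was in 0.182% of all starts and in neither sequence shown above. These matches describe letters and not bound sites. The DNA under the peaks themselves is not shown, since no genome of their build was used here.

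ACVR1 encodes the type I receptor ALK2, and lies on the minus strand of chromosome 2 from 158592958 to 158732374. Both of its treated peaks were inside the gene body. The one nearer to the start, from 158688132 to 158688826, was 695 bp wide, scored 57.83 and ranked 4982. The other, from 158678130 to 158678725, was 596 bp wide, scored 52.47 and ranked 6810. Their midpoints lay 43.9 and 53.95 kb past the start, at 31.5% and 38.7% of the gene body, and 9.41 kb separated them. Both scores were below the median of the treated list, and 65.1% and 89.5% of its peaks scored at least as high.

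No untreated peak was found in the ACVR1 window, and the nearest was 708 kb from the gene body, on the 5′ side of the gene. Among windows of that length (339 kb), 19.9% held at least 2 treated peaks, 49.7% at least 1, and 34.0% at least 1 untreated peak. The stronger peak at ACVR1 scored less than the strongest one at each of the other genes with a peak, and the count of 2 was not unusual for the treated list.

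The BMP4 gene, which encodes the ligand that was added to the cells, lies on the minus strand of chromosome 14 from 54416455 to 54423554. It is the shortest of the 5 genes at 7.10 kb, and yet its window held the most peaks. All 6 treated peaks were outside the gene body. The peak nearest to the start, from 54425635 to 54426206, was 2.08 kb upstream, 572 bp wide and scored 79.07. A peak downstream of the gene end, from 54413423 to 54414091, was 2.36 kb away and scored 67.70. The remaining 4 lay further upstream. They were at 25.5 kb (54449075 to 54449958, score 74.77), 32.8 kb (54456384 to 54456987, score 64.58), 44.7 kb (54468221 to 54468810, score 52.03) and 74.6 kb (54498114 to 54498800, score 88.79).

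The 6 peaks spanned 85.4 kb with gaps of 6.43 to 29.3 kb, so they were closer together than those at BMPR1A. Their scores ran from 52.03, which ranked 7098 of 7682, to 88.79, which ranked 1872. Windows as long as that of BMP4 (207 kb) held at least 6 treated peaks in 0.369% of cases, at least 1 treated peak in 35.3% and at least 1 untreated peak in 23.4%. This was the least common count among the 5 genes. None of the 6 reached a score of 100, as 20.2% of the treated list did, which with 6 peaks does not set them apart.

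**Figure D3:**
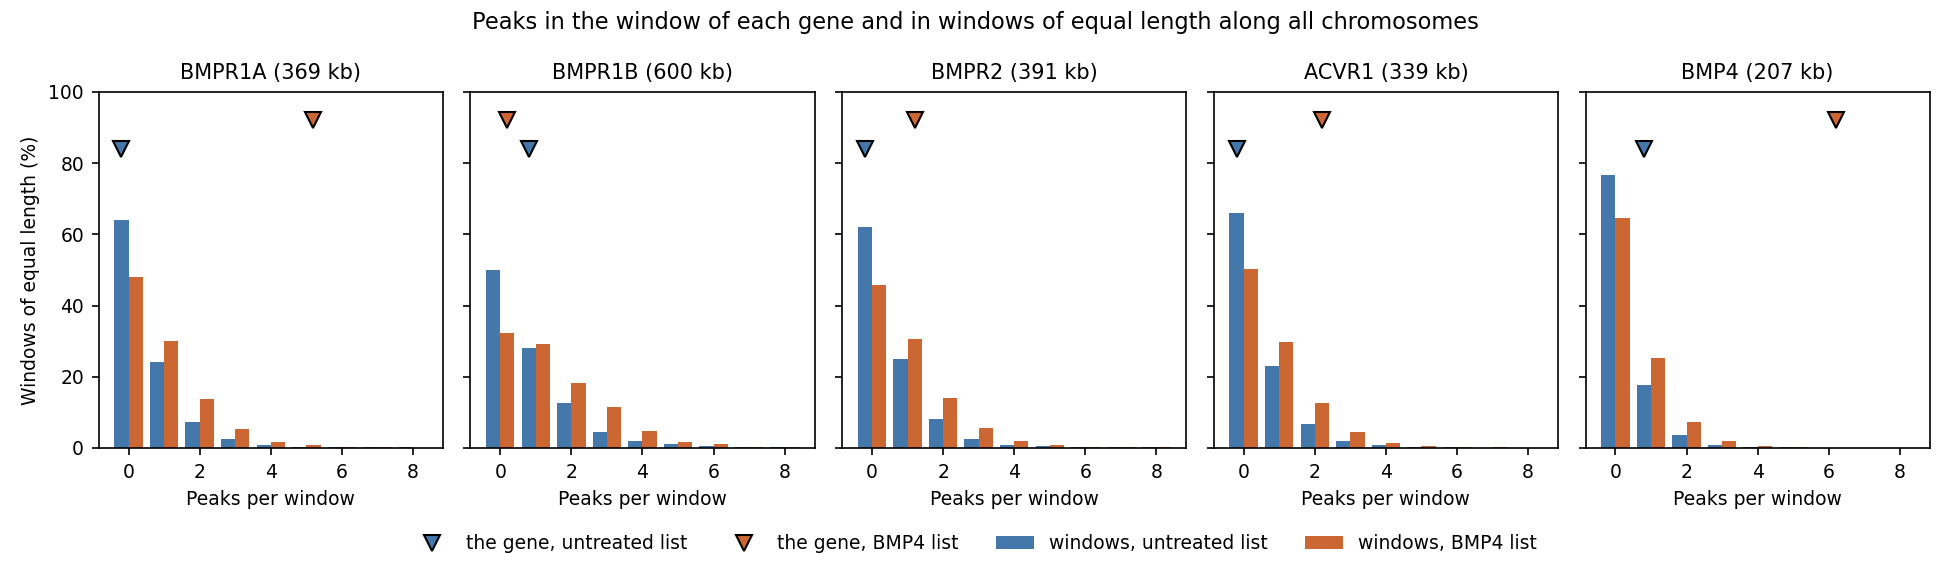
Percentage of windows of equal length along all chromosomes (bars) that hold 0 to 8 peaks of the untreated list or the treated list (BMP4), 1 panel per gene. Triangles mark the count at the gene itself, which for the treated list is 5 at BMPR1A and 6 at BMP4, where few windows hold as many.

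The single untreated peak at the BMP4 gene lay among the upstream treated peaks, from 54457656 to 54458517, 34.1 kb from the start. It was 862 bp wide, scored 76.77 and ranked 1595 of 5203. The treated peak at 32.8 kb ended 669 bp before it began, so the 2 peaks were neighbours without overlap. Of peaks without a partner, 1.33% in the treated list and 2.68% in the untreated list had a peak of the other list within 1 kb. This was the closest approach of the lists at any of the 5 genes. The other treated peaks at BMP4 lay 7.70 to 43.6 kb from this untreated peak.

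**Figure D4:**
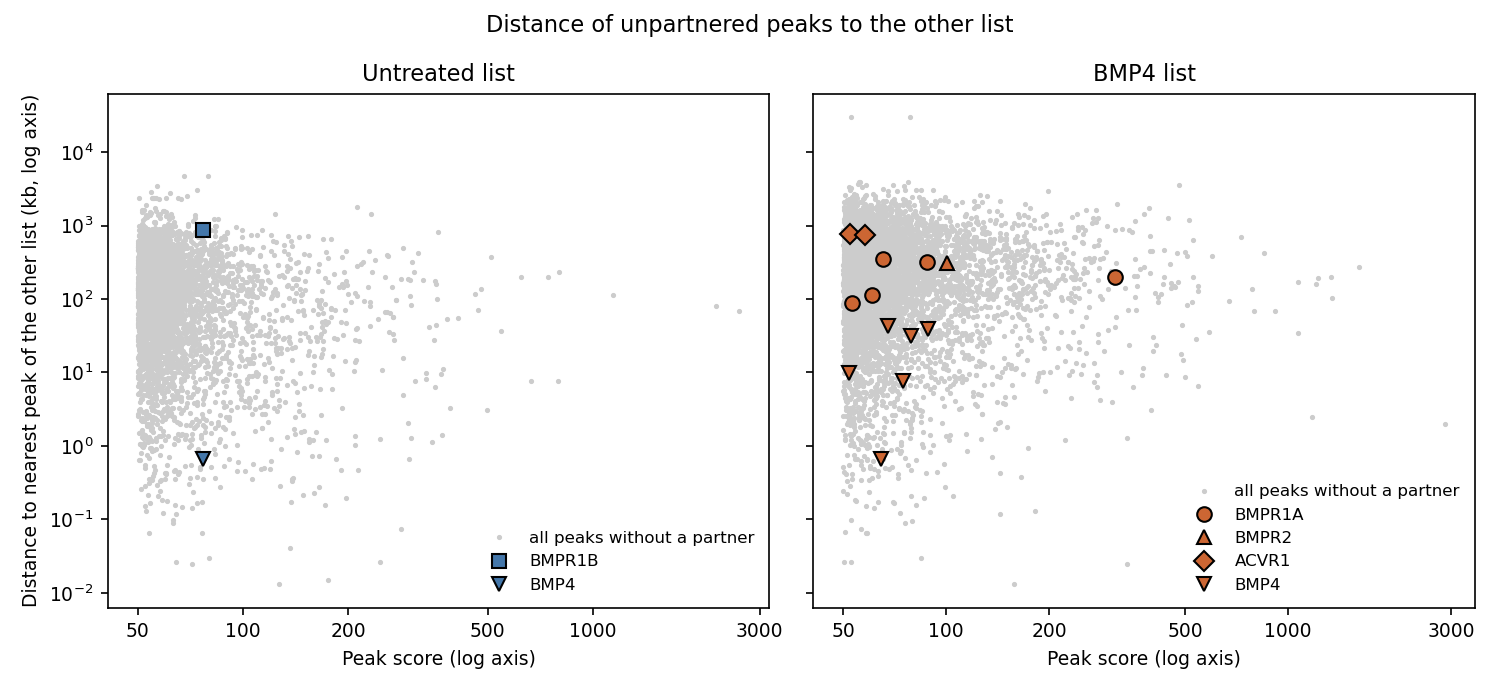
Distance in kb from each peak without a partner to the nearest peak of the other list, against its score (both axes logarithmic), with peaks at the 5 genes as large symbols over all such peaks of the list in grey. The peaks at BMP4 lie closest to the other list, from 0.669 kb, and those at ACVR1 and BMPR1B farthest, at 752 kb or more.

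The distances to the other list follow in part from the counts, since BMP4 was the gene whose window held peaks of both lists. The median distance from an unpartnered peak to the nearest peak of the other list was 207 kb in the treated list and 101 kb in the untreated list. The 6 treated peaks at BMP4 lay between 0.669 and 43.6 kb, all below the treated median. Those at BMPR1A lay between 87.4 and 356 kb, on both sides of it. The peak at BMPR2, at 310 kb, and the pair at ACVR1, at 752 and 762 kb, were above it.

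By place, 8 of the 14 treated members lay upstream of a gene start, 3 within a gene body and 3 downstream of a gene end. Of the 8 upstream peaks, 5 were at the BMP4 gene, whose body is only 7.10 kb long. These counts were not compared with the length searched at each place. No peak of either list covered the start of any of the 5 genes as the rule places it. The 3 peaks nearest to a start were those at BMPR2 (565 bp), BMP4 (2.08 kb) and BMPR1A (4.47 kb), all upstream and all in the treated list.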

How the data were processed

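SMAD1 ChIP-seq of untreated and BMP4-treated H1 hESCs was used. Per the labels and the methods, the authors mapped reads to hg19 with BWA 0.7.5a, merged replicates and called peaks against input with MACS 1.4.2. Both lists are many times longer than the methods state, and the treated list is the longer here but the shorter in the methods, so another run or filter may have made them. The deposited score was read as 10 times −log10 of p (lowest value 50, p of 1e-05). Starts were converted to count from 1.

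Gene bodies came from the rule and strands from RefSeq. Peaks within 100 kb and overlaps of at least 1 bp were found in Python 3.11.15 with pandas 2.3.3, numpy 2.4.6 and scipy 1.17.1 and plotted with matplotlib 3.10.9. These steps were tested on simulated data. Windows of equal length were laid from the start of each of 24 chromosomes to its last peak. The reference at hand was hg38. In 15 chromosomes a peak ended past the hg38 end, so exons, introns and the planned list of other pathway genes were not analysed here. Inputs were not used separately. The genes were chosen with earlier results of these data known, and every peak that met the rule was named.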

Additional observations from a re-analysis of the deposited data

How the results depend on the processing

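In all, 4 counts (members of each list, and members with a partner) were recomputed under up to 7 alternatives, and 5 of 24 values moved by more than 1.5 times or away from 0. Partner counts start at 0, so 10 of these values, under settings that cannot add a partner, could not move. At a minimum score of 100, 2 treated members (at BMPR1A and BMPR2) and 0 untreated members were left, which follows from the filter. Within 250 kb the untreated members rose from 2 to 5 and the treated ones from 14 to 17. A wider window can only add members, but as many untreated as treated peaks were added. The treated excess was therefore not seen among the added peaks, and BMPR1A and BMPR2 then had 1 untreated peak each. With a gap of up to 1 kb allowed, 1 treated and 1 untreated peak had a partner, the pair upstream of BMP4. With the treated list shortened to its 5203 highest scores (at least 57.06), 11 treated members were left. The BMP4 gene then had 5, and 0.369% of windows of equal length held at least 5 peaks of the shortened list. Within 50 kb there were 12 treated and 2 untreated members. A limit of 5 kb on width removed no member, so it tests nothing here. No paired analysis was possible because the conditions hold 1 list apiece. The filter behind the lists is unknown, so a peak missing from a list shows that it was not listed, and without counts lower occupancy was not detectable.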
